A study of Mus musculus with 24 samples.

Results

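The 35 genes described here mark or build the endothelium, the cell layer that lines blood and lymph vessels. They were chosen by name as endothelial receptors, adhesion proteins and transcription factors, and each was read from its single-gene probe set (where a gene has several, the one with the highest mean), which gave 35 of the 19351 genes measured. All 35 had exactly 1 such probe set. The samples were 24 pieces of tissue cut by laser from frozen sections of C57BL/6J embryos from timed pregnancies, with no mutation or treatment, 8 per stage: pleuroperitoneal folds, the paired primordia of the diaphragm, at E11.5 and E12.5, and muscularized diaphragm at E16.5. Folds were cut from transverse sections and diaphragms from sagittal ones, so stage, tissue and plane of section changed together between E12.5 and E16.5. RNA was amplified and hybridised to 1 array per sample, and values are log2 intensities, so a difference of 1 is a 2-fold change. The labels do not say that replicates came from separate embryos, so p-values measure only the spread between these samples, which may be technical.

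Endothelial cells are held together by adherens and tight junctions, with VE-cadherin (Cdh5) and claudin-5 (Cldn5) as their best known proteins, and grow in response to VEGF and angiopoietins through the receptor kinases Kdr, Flt1, Flt4, Tek and Tie1. Their identity depends on transcription factors of the ETS family (Erg, Fli1, Ets1) and the SOXF group (Sox7, Sox17, Sox18), while Prox1 directs lymphatic fate. In muscle, capillaries grow with the fibres, and their endothelium carries proteins for handling blood lipids, such as Gpihbp1, which holds lipoprotein lipase on the vessel wall. Since the arrays read whole pieces of tissue, more endothelial cells and more RNA per endothelial cell cannot be told apart in any value below.

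Promoter sequences are shown for 4 genes that were higher at E16.5 than at E12.5, a sialomucin of the vessel surface, a water channel and a pair of receptor kinases, because ETS and SOX factors among the 35 genes are known to act through short motifs near such starts. RefSeq's promoter table (build GRCm38.p6) had 16 of the 35 genes, with 21 promoters. Printed 5′ to 3′ on the gene's own strand are the 250 bases before each start, at chr1:194938571-194938820 (plus strand) for Cd34, chr6:55336049-55336298 (plus) for Aqp1, chr5:75978456-75978705 (minus) for Kdr and chr4:94739039-94739288 (plus) for Tek. Capitals mark a match to an ETS motif (AGGAAG or GGAAGT), a SOX motif (AACAAT) or a GATA motif (AGATAA) on either strand.
Cd34: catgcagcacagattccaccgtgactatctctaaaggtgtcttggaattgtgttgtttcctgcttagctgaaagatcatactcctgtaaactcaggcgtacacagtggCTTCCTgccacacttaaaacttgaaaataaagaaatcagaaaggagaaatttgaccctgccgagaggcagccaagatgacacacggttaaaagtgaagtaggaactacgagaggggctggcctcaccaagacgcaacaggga
Aqp1: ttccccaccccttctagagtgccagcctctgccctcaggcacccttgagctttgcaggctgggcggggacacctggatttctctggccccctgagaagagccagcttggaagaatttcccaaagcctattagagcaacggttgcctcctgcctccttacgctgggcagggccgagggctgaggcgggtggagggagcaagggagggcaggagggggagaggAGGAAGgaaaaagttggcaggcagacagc
Kdr: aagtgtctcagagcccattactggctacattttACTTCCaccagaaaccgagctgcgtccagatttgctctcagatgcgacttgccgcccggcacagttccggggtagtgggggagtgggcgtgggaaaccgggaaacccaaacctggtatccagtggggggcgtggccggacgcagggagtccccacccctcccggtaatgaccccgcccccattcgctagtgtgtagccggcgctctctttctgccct
Tek: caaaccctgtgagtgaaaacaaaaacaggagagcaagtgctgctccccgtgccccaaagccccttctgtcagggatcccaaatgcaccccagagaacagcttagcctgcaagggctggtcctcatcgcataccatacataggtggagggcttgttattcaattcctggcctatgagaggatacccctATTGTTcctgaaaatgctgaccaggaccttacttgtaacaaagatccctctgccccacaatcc
The ETS match begins 142 bases before the start in Cd34 (on the opposite strand), 29 in Aqp1 and 217 in Kdr (opposite strand), and the SOX match of Tek begins 63 bases before it (opposite strand). Over the full windows of 250 bases before to 50 after a start, AGGAAG was found in 11 of the 21 promoters, those of 10 genes, against 35.4% of all 32851 promoters in the table. GGAAGT, which overlaps AGGAAG by 5 bases, was in 6 of 21 against 23.8%, AACAAT in 3 of 21 against 10.7%, and AGATAA in 2 of 21 against 11.2%. These matches describe letters and were not tested as binding sites.

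Between the folds of E11.5 and E12.5, 0 of the 35 endothelial genes passed limma's threshold of an adjusted p under 0.05 (Benjamini-Hochberg over all genes), where 0.388% of all genes did. At an unadjusted p under 0.05, 4 genes were higher at E12.5 (6.27% of all genes) and 1 was lower (8.14%). Between E12.5 and E16.5, 17 genes rose, 2 fell and 16 did not pass. Of all genes 27.1% passed in this comparison, 2223 of 19351 rising and 3018 (15.6%) falling. The median change of the 35 genes was 0.38, beside -0.02 over all genes. Compared with E11.5 in place of E12.5, the E16.5 diaphragm had 16 genes higher and 3 lower, where 13.8% and 19.6% of all genes were, with a median change of 0.27 beside -0.08 over all genes. Both comparisons use the same E16.5 arrays and are not independent of each other. Within those arrays replicates 1 to 4 stood apart from replicates 5 to 8, and the counts for each set alone are given further on. Every array of E16.5 lay above every E12.5 array for 3 of the genes (Pecam1, Cd34 and Aqp1) and for 4.69% of all genes, and below for 0 of them and 5.40% of all. Against E11.5 the genes with no overlap were 3 higher (Cd34, Aqp1 and S1pr1; 5.22% of all genes) and 0 lower (3.86%).

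**Figure D1:**
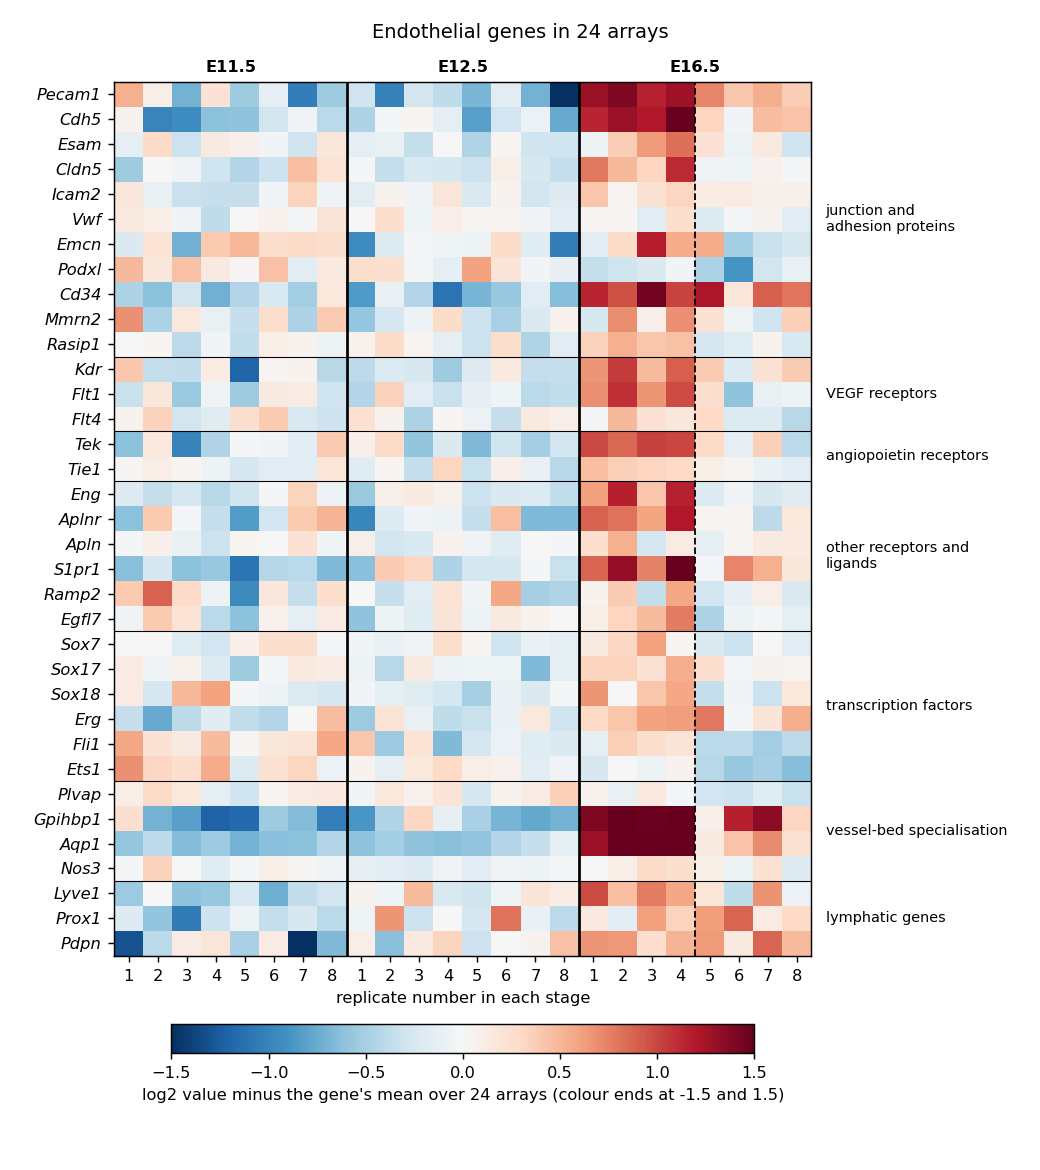
Log2 value of each of the 35 endothelial genes (rows, grouped by role) in each of the 24 arrays (columns, by stage and replicate number), minus the gene's mean over all arrays; red is above and blue below that mean, and colours end at -1.5 and 1.5. The dashed line divides E16.5 replicates 1 to 4 from 5 to 8: of the 35 genes, 33 have a higher mean in the first set.

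Among the 11 junction, adhesion and vessel-surface proteins, 6 rose from E12.5 to E16.5, 1 fell and 4 did not pass. Pecam1, an adhesion protein of endothelial contacts, had log2 values of 7.47 to 8.88 at E12.5 (median 8.51) and of 9.42 to 10.44 at E16.5 (median 9.99), with 8.01 to 9.58 at E11.5 (median 8.71). It was thus lowest at E12.5 by its mean, and its E16.5 arrays overlapped only with those of E11.5. The rise from E12.5 was 1.54 on the log2 scale (SE 0.22, 2.90-fold, adjusted p = 8.44e-06 in limma), while E12.5 and E11.5 differed by -0.38 (SE 0.22, adjusted p = 0.442). Cdh5, the cadherin of endothelial adherens junctions, ranged from 8.87 to 9.91 at E11.5 (median 9.35), from 9.05 to 9.89 at E12.5 (median 9.64) and from 9.82 to 11.42 at E16.5 (median 10.66). Only its lowest E16.5 array lay within the range of the folds, and the rise from E12.5 was 1.12 (SE 0.21, 2.17-fold, adjusted p = 1.75e-04).

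Cd34, a sialomucin of the luminal surface that is also made by blood progenitors and some fibroblasts, had values of 8.35 to 9.23 at E11.5 (median 8.61), 7.96 to 8.96 at E12.5 (median 8.46) and 9.25 to 10.52 at E16.5 (median 10.06). The stages E12.5 and E16.5 did not overlap, nor did E11.5 and E16.5. Its change from E12.5 was 1.53 (SE 0.16, 2.89-fold), with the smallest adjusted p among the 35 genes (4.14e-08). Cldn5, the tight junction claudin, rose by 0.54 (SE 0.16, adjusted p = 0.0116), from a mean of 8.16 ± 0.16 (SD, n = 8) at E12.5 to 8.70 ± 0.44 (n = 8). Esam, a junction protein of the immunoglobulin family, rose by 0.42 (SE 0.13, adjusted p = 0.0194), and Icam2, which leukocytes bind on resting endothelium, by 0.26 (SE 0.10, adjusted p = 0.0483). The Icam2 call rests on the full set of arrays: without any 1 of 13 arrays (E11.5 replicates 2, 6 and 8, E12.5 replicates 1, 3, 5, 7 and 8, E16.5 replicates 1 and 3 to 6) it was lost, with adjusted p up to 0.104.

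Podxl, podocalyxin, a sialomucin related to Cd34 that lines vessel lumens and is also made by mesothelium, went the other way. Its values were 7.94 to 8.59 at E11.5 (median 8.27), 7.98 to 8.71 at E12.5 (median 8.19) and 7.23 to 8.07 at E16.5 (median 7.83). The stages overlapped at the edges, and the fall from E12.5 was 0.46 (change -0.46, SE 0.12, adjusted p = 0.0054). In limma with E16.5 replicates 1 to 4 alone the Podxl change was -0.35 and did not pass (adjusted p = 0.0639). With replicates 5 to 8 alone it was -0.56 and passed (adjusted p = 0.0126). Of the 4 genes that did not pass, the sialomucin Emcn changed by 0.45 (SE 0.23, adjusted p = 0.165), the matrix protein Mmrn2 by 0.38 (SE 0.18, adjusted p = 0.119) and Rasip1, needed for opening vessel lumens, by 0.19 (SE 0.13, adjusted p = 0.317). Vwf, the clotting factor stored by endothelium and platelets, had means of 7.70 ± 0.18, 7.71 ± 0.12 and 7.67 ± 0.15 (SD, n = 8 each) at the 3 stages, a change of -0.04 from E12.5 (SE 0.08, adjusted p = 0.787).

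**Figure D2:**
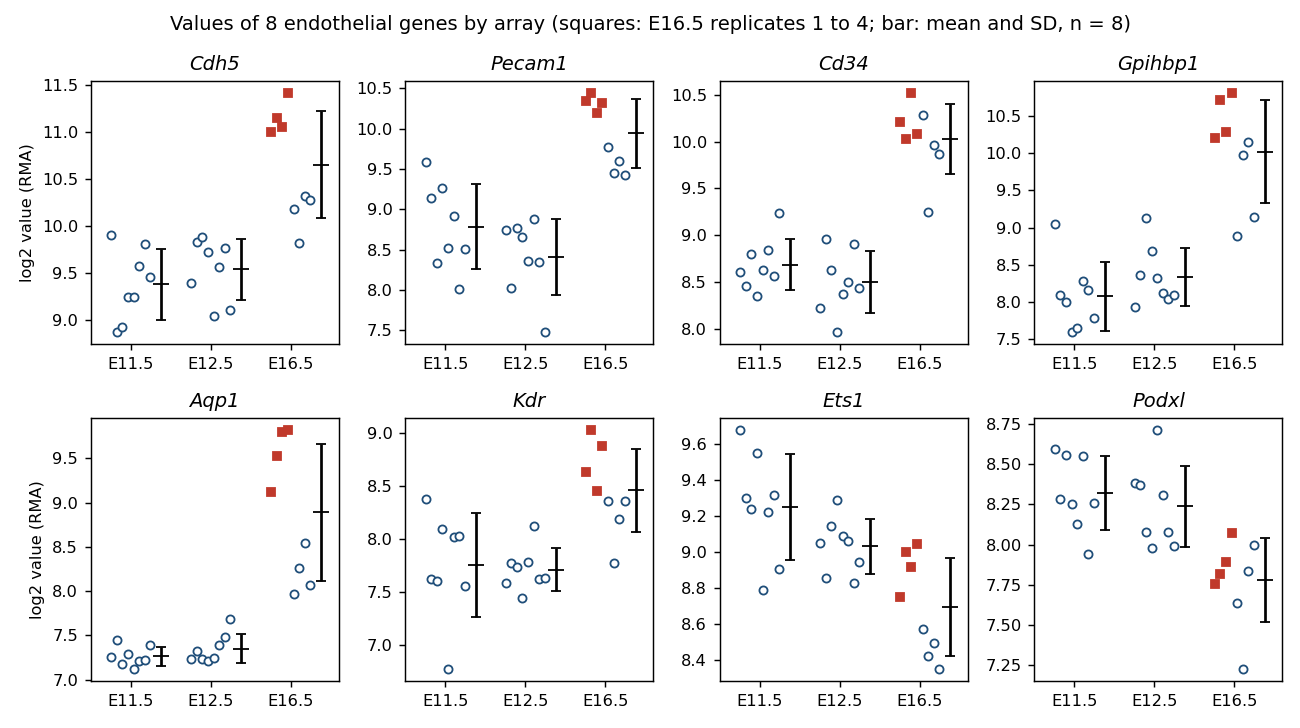
Log2 value of 8 endothelial genes in each array (points), by stage; squares are E16.5 replicates 1 to 4, and the bar gives the mean and SD of the 8 arrays of a stage. For Cd34 and Aqp1 every E16.5 array lies above every fold array, while Ets1 and Podxl are lower at E16.5.

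Of the 3 VEGF receptors, 2 rose and Flt4 did not pass. Kdr, the main signalling receptor for VEGF-A, ranged from 6.78 to 8.38 at E11.5 (median 7.82), from 7.45 to 8.13 at E12.5 (median 7.69) and from 7.78 to 9.03 at E16.5 (median 8.41). The ranges overlapped, and the rise from E12.5 was 0.75 (SE 0.18, 1.68-fold, adjusted p = 0.0026 in limma). Flt1, which binds VEGF-A tightly and signals little, rose by 0.56 (SE 0.20, adjusted p = 0.0352), from 8.02 ± 0.26 to 8.58 ± 0.59 (SD, n = 8 each). Its SD at E16.5 was the wider one, and the call was lost without any 1 of 8 arrays (E12.5 replicates 1, 4, 7 and 8, E16.5 replicates 1 to 4; adjusted p up to 0.0862). Flt4, the VEGF-C receptor of lymphatic and sprouting endothelium, changed by 0.08 (SE 0.14, adjusted p = 0.753), with means of 6.96, 6.91 and 6.99 at the 3 stages.

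Both angiopoietin receptors passed. Tek, the receptor that binds the angiopoietins, had values of 6.63 to 8.02 at E11.5 (median 7.53), 6.97 to 7.92 at E12.5 (median 7.34) and 7.23 to 8.66 at E16.5 (median 8.24), a rise from E12.5 of 0.77 (SE 0.21, 1.71-fold, adjusted p = 0.0077). The upper values at E16.5 were those of replicates 1 to 4 (8.50 to 8.66), which lay above every fold array. Tie1, the partner receptor of Tek, rose by 0.28 (SE 0.11, adjusted p = 0.0484 in limma). That call ended without any 1 of 16 arrays, with adjusted p up to 0.108 (E11.5 replicates 1 to 4, 6 and 7, E12.5 replicates 1, 3, 5, 7 and 8, E16.5 replicates 1 to 5).

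Of the 6 other receptors and ligands, S1pr1, Aplnr and Eng rose and the rest did not pass. S1pr1, the sphingosine-1-phosphate receptor that steadies new vessels, went from 7.56 to 8.40 at E11.5 (median 8.06) and 8.03 to 9.04 at E12.5 (median 8.40) to 8.63 to 10.23 at E16.5 (median 9.39). Its E16.5 arrays were all above those of E11.5 and overlapped with those of E12.5. The rise from E12.5 was 0.90 (SE 0.19, 1.86-fold, adjusted p = 6.58e-04; 0.51, adjusted p = 0.0579, with E16.5 replicates 5 to 8 alone) and from E11.5 1.32 (SE 0.19, adjusted p = 4.86e-06). The step from E11.5 to E12.5 was 0.42 (SE 0.19), with an unadjusted p of 0.0342 and an adjusted p of 0.308. Aplnr, the apelin receptor of veins and sprouting capillaries, rose by 0.73 (SE 0.23, adjusted p = 0.0205), a call lost without E16.5 replicate 4 (adjusted p = 0.0509) and with E16.5 replicates 5 to 8 alone. Its ligand Apln changed by 0.18 (SE 0.09, adjusted p = 0.163).

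Eng, endoglin, a co-receptor for BMP9 and TGF-beta, rose by 0.51 (SE 0.19, adjusted p = 0.0471). That call was lost without any 1 of 16 arrays (E11.5 replicates 1 to 6 and 8, E12.5 replicates 1 and 5 to 8, E16.5 replicates 1 to 4; adjusted p up to 0.114). Its E16.5 values were split, 8.21 to 8.96 in replicates 1 to 4 and 7.56 to 7.76 in replicates 5 to 8, the second set lying within the fold values of 7.24 to 8.13. Ramp2, which makes the adrenomedullin receptor with Calcrl, changed by 0.11 (SE 0.20, adjusted p = 0.764) and Egfl7, an endothelial matrix protein, by 0.19 (SE 0.16, adjusted p = 0.432).

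Of the 6 transcription factors, 2 rose, 1 fell and 3 did not pass. Erg, the ETS factor that maintains junction genes such as Cdh5, had values of 7.48 to 8.69 at E11.5 (median 7.87), 7.68 to 8.44 at E12.5 (median 8.02) and 8.20 to 9.02 at E16.5 (median 8.71), overlapping ranges with a rise from E12.5 of 0.61 (SE 0.14, 1.52-fold, adjusted p = 0.0022). Sox17, the SOXF factor of arteries, rose by 0.39 (SE 0.11, adjusted p = 0.0095). Ets1, which is also made by mesenchyme and lymphocytes, ran opposite to Erg, with 8.79 to 9.68 at E11.5 (median 9.27), 8.83 to 9.29 at E12.5 (median 9.05) and 8.35 to 9.04 at E16.5 (median 8.66). The highest diaphragm values overlapped with the lower fold values.

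The Ets1 change was -0.34 from E12.5 (SE 0.12, adjusted p = 0.0380) and -0.56 from E11.5 (SE 0.12, adjusted p = 7.83e-04). The change from E12.5 was lost without any 1 of 9 arrays (E12.5 replicates 1 and 3 to 6, E16.5 replicates 5 to 8; adjusted p up to 0.0825), and also under 2 of the other scalings listed in the closing section. With E16.5 replicates 1 to 4 alone neither change passed in limma, at -0.11 from E12.5 (adjusted p = 0.652) and -0.32 from E11.5 (adjusted p = 0.0745). With replicates 5 to 8 alone both passed, at -0.57 and -0.79. Fli1, another ETS factor, which blood cells also make, had means of 9.88 ± 0.22, 9.42 ± 0.35 and 9.46 ± 0.35 (SD, n = 8 each). Most of its difference lay between E11.5 and E12.5 (-0.46, SE 0.15, unadjusted p = 0.0049, adjusted p = 0.175), and E16.5 against E11.5 gave -0.43 (SE 0.15, adjusted p = 0.0305), lost without any 1 of 6 arrays (E11.5 replicates 1 and 8, E16.5 replicates 5 to 8; adjusted p up to 0.0654). Sox7 changed from E12.5 to E16.5 by 0.10 (SE 0.11, adjusted p = 0.590) and Sox18 by 0.32 (SE 0.15, adjusted p = 0.116).

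Of the 4 genes that mark special vessel beds, Gpihbp1 and Aqp1 rose from E12.5 to E16.5 and 2 did not pass. Gpihbp1 had values of 7.60 to 9.05 at E11.5 (median 8.05), 7.94 to 9.12 at E12.5 (median 8.22) and 8.89 to 10.81 at E16.5 (median 10.18). A single fold array of each stage reached into the E16.5 range. The rise from E12.5 was 1.68 (SE 0.25, 3.21-fold, adjusted p = 9.53e-06) and from E11.5 1.94 (SE 0.25, 3.84-fold).

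Aqp1, the water channel of capillary endothelium and red cells, had values in a narrow band in the folds, 7.12 to 7.45 at E11.5 (median 7.24) and 7.21 to 7.68 at E12.5 (median 7.29), and of 7.97 to 9.82 at E16.5 (median 8.83). All 8 diaphragm arrays lay above all 16 fold arrays, with a rise from E12.5 of 1.54 (SE 0.22, 2.90-fold, adjusted p = 5.26e-06). Plvap, the protein of the diaphragms across fenestrae and caveolae, changed by -0.22 (SE 0.09, adjusted p = 0.0858) and Nos3, the endothelial nitric oxide synthase, by 0.19 (SE 0.07, adjusted p = 0.0506). Nos3 lay just outside the threshold and passed in several of the alternative settings.

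The 3 lymphatic genes, with S1pr1, were those at an unadjusted p under 0.05 on the side of E12.5 in the comparison of the folds. Lyve1, a hyaluronan receptor of lymphatic endothelium and of some macrophages, had values of 7.44 to 8.17 at E11.5 (median 7.72), 7.87 to 8.65 at E12.5 (median 8.17) and 7.79 to 9.15 at E16.5 (median 8.70). Prox1, the lymphatic fate factor that hepatocytes and muscle also make, had 6.38 to 7.35 (median 7.10), 7.03 to 8.25 (median 7.35) and 7.26 to 8.30 (median 7.75). Pdpn, podoplanin, shared with mesothelium and some mesenchyme, had 7.91 to 9.99 (median 9.37), 9.18 to 10.25 (median 9.89) and 9.96 to 10.69 (median 10.39). All neighbouring stages overlapped for each gene.

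From E11.5 to E12.5 the log2 changes were 0.44 (SE 0.16) for Lyve1, 0.45 (SE 0.18) for Prox1 and 0.56 (SE 0.23) for Pdpn, with adjusted p of 0.222, 0.258 and 0.281 in limma, and from E12.5 to E16.5 they were 0.37, 0.31 and 0.51, with adjusted p of 0.0863, 0.212 and 0.111. Neither step passed for any of them. Over both steps together all 3 rose, by 0.81 for Lyve1 (SE 0.16, adjusted p = 2.53e-04), 0.76 for Prox1 (SE 0.18, adjusted p = 0.0014) and 1.07 for Pdpn (SE 0.23, adjusted p = 8.05e-04). Flt4, the receptor that the lymphatic lineage shares with sprouting vessels, changed by 0.03 from E11.5 to E16.5. Its values, 6.49 to 7.435, lay below the array medians (7.44 to 7.55) at every stage, so a change could be missed for lack of signal.

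**Figure D3:**
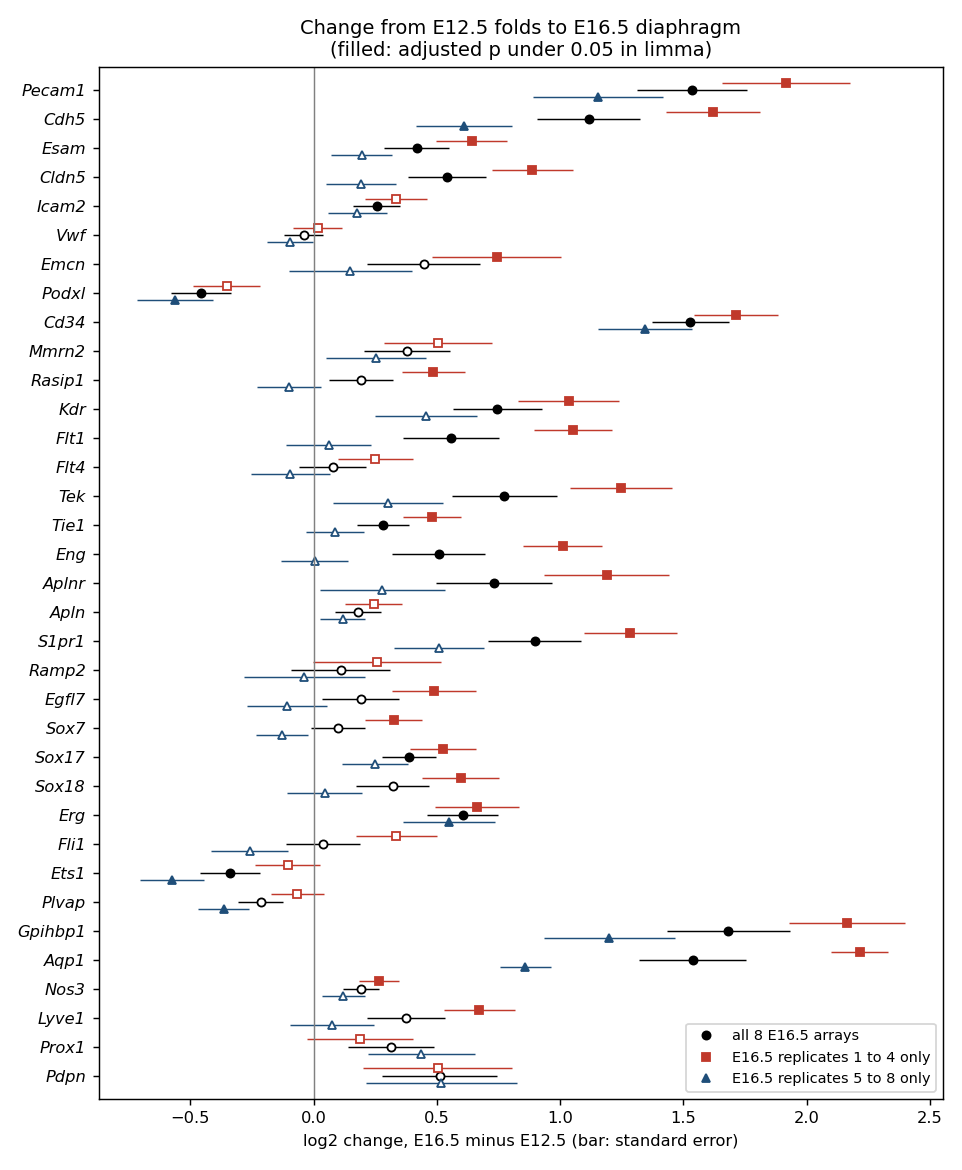
Log2 change of each of the 35 endothelial genes from E12.5 to E16.5 with its standard error, using all E16.5 arrays, replicates 1 to 4 only or replicates 5 to 8 only; filled points have an adjusted p under 0.05 in limma. Changes with replicates 1 to 4 lie to the right of those with replicates 5 to 8 for 33 of 35 genes.

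The 8 E16.5 arrays did not read these genes evenly. Replicates 1 to 4 had the higher mean for 33 of the 35 genes, by a median of 0.47 on the log2 scale beside 0.01 over all genes, and for 18 genes all 4 of them lay above all of replicates 5 to 8, as 6.43% of all genes did. For 0 of the 35 did they all lie below (5.14% of all genes). The labels do not separate these sets; the division was seen in these arrays in earlier work on them, so the values are a description without a test. Differences were 1.36 for Aqp1 (9.12 to 9.82 against 7.97 to 8.55), 1.01 for Cdh5 (11.01 to 11.42 against 9.82 to 10.32), 0.99 for Flt1 and 0.94 for Tek. Erg and Vwf differed by 0.11 each. Of the lymphatic genes, Lyve1 differed by 0.60, Pdpn by -0.01 and Prox1 by -0.25, and all 3 overlapped between the sets.

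Set against E12.5 alone, replicates 1 to 4 gave 23 genes higher (11.7% of all genes) and 0 lower (13.7%), with a median change of 0.52. Replicates 5 to 8 gave 6 higher (7.93%), namely Pecam1, Cdh5, Cd34, Gpihbp1, Aqp1 and Erg, and 3 lower (10.1%), namely Podxl, Ets1 and Plvap, with a median change of 0.15. In the second set the changes of these 6 were 1.15, 0.61, 1.34, 1.20, 0.86 and 0.55. Against E11.5 the counts were 22 higher (13.0%) and 1 lower (15.3%) for the first set and 10 higher (10.2%) and 4 lower (11.9%) for the second, the 10 being those 6 with S1pr1, Lyve1, Prox1 and Pdpn. The receptors Kdr, Flt1, Tek, Tie1, Eng, Aplnr and S1pr1 passed against E12.5 with replicates 1 to 4 but not with 5 to 8. In replicates 5 to 8 their changes were 0.46, 0.06, 0.30, 0.09, 0.00, 0.28 and 0.51. The same held for Cldn5, Esam and Sox17, with changes of 0.19, 0.19 and 0.25 in replicates 5 to 8. Icam2 passed against E12.5 with neither set alone.

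Other transcripts also differed between the sets, and their part in these differences was not tested. The mean log2 value of 15 pericyte and vascular smooth muscle markers was 8.77 to 9.03 in replicates 1 to 4 and 8.37 to 8.55 in replicates 5 to 8, and that of 15 skeletal muscle markers was 11.11 to 11.23 and 10.68 to 10.90. Erythroid markers (12 measured) went the other way, 7.55 to 8.18 against 8.14 to 9.01. Mesothelial markers (14 measured) also had the lower values in replicates 1 to 4, 7.94 to 8.36 against 8.28 to 8.48, with a narrow overlap. Hepatocyte markers (14) overlapped widely, 9.42 to 11.499 against 10.15 to 11.42. Lung epithelial markers (14) reached higher values in replicates 1 to 4, 7.35 to 7.83 against 7.06 to 7.48, with an overlap. The macrophage, platelet, cardiac, liver sinusoid and fold mesenchyme lists also overlapped between the sets.

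To set each gene beside others of the same cell type, each array's mean of Pecam1, Cdh5, Tie1, Tek and Esam was subtracted from its values. This mean was 7.76 to 8.32 at E11.5 and 7.68 to 8.27 at E12.5. At E16.5 it was 9.11 to 9.34 in replicates 1 to 4 and 8.34 to 8.68 in replicates 5 to 8. All E16.5 arrays thus lay above all folds. The 5 genes rose unevenly from E12.5 to E16.5, Pecam1 by 1.54, Cdh5 by 1.12, Tek by 0.77, Esam by 0.42 and Tie1 by 0.28. On this relative scale 0 of the other 30 genes changed from E11.5 to E12.5 (0.331% of all genes). From E12.5 to E16.5, 3 genes rose against the mean of the 5, where 2.55% of all genes did. By limma's test Gpihbp1 rose by 0.86 (SE 0.21, adjusted p = 3.66e-04), Aqp1 by 0.71 (SE 0.17, adjusted p = 2.73e-04) and Cd34 by 0.70 (SE 0.18, adjusted p = 5.82e-04). Before subtraction, Aqp1 (1.54) and Cd34 (1.53) rose about as much as Pecam1 alone. The relative rise of Gpihbp1, Aqp1 and Cd34 was called in all 40 alternative settings. Changes lay within 0.72 to 1.03 for Gpihbp1, 0.39 to 1.04 for Aqp1 and 0.53 to 0.88 for Cd34. Some of these settings could not move the relative values. Centring whole arrays cancels in the subtraction, and none of these genes had several probe sets to average. Such settings therefore say nothing about how stable the changes are.

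Lower on the relative scale were 18 of the 30, but so were 89.7% of all genes, whose median was -0.85 since a reference that rose was subtracted, and nothing is read from that count. Podxl at -1.28, Ets1 at -1.16 and Plvap at -1.04 lay below that median, and Vwf at -0.87 (SE 0.15) lay about at it. Kdr, Flt1, Eng, Aplnr, S1pr1, Erg, Cldn5, Emcn and Pdpn did not differ from the reference by limma's test, with changes from -0.38 (SE 0.19) for Emcn to 0.07 (SE 0.18) for S1pr1. From E11.5 to E16.5 Gpihbp1 (1.22), Aqp1 (0.91), Cd34 (0.62) and S1pr1 (0.60) rose on this scale, where 3.73% of all genes did. Lower were 17, where 84.3% of all genes were. Before subtraction, Cd34 (1.34) and S1pr1 (1.32) rose about as much as the reference gene Cdh5 (1.28).

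**Figure D4:**
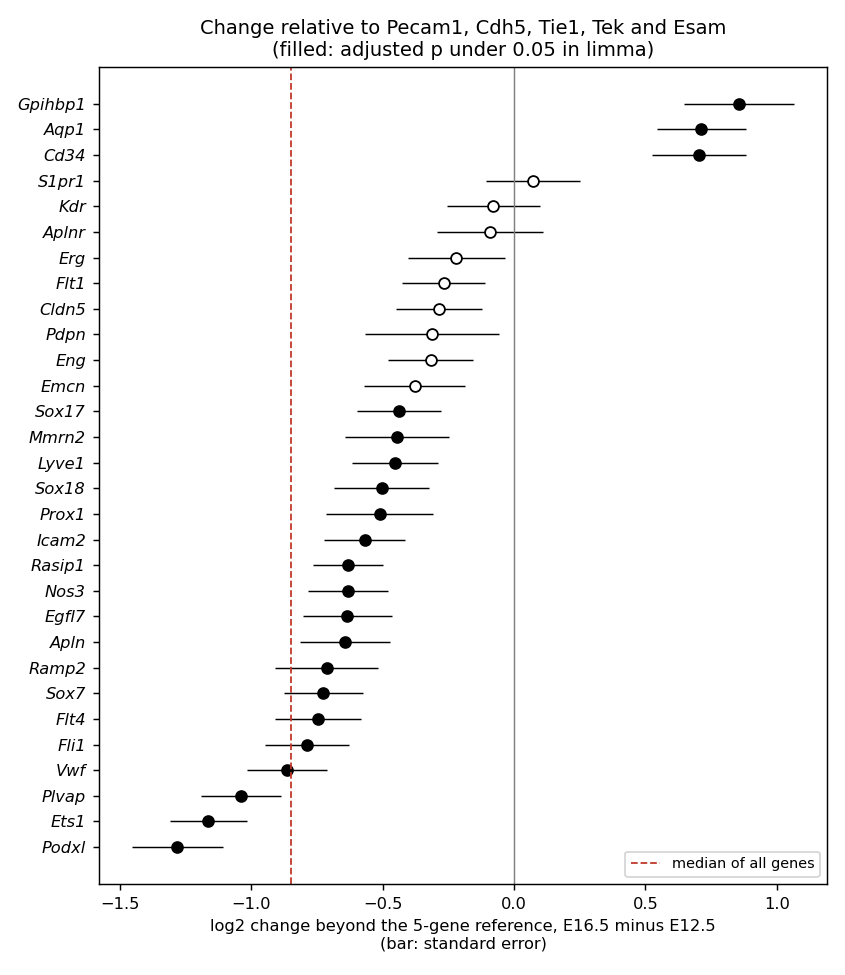
Log2 change from E12.5 to E16.5 of 30 endothelial genes after subtracting, in each array, the mean of Pecam1, Cdh5, Tie1, Tek and Esam; bars are standard errors and filled points have an adjusted p under 0.05 in limma. Gpihbp1, Aqp1 and Cd34 lie to the right of 0, and the dashed line marks the median of all genes at -0.85.

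Further genes of the vessel wall were read from lists written from general knowledge, with the shares of all genes above as background. Some genes, Mcam and Foxc2 among them, are in more than 1 list, so the counts of the lists are not independent of each other. In a list of 19 endothelial receptors and adhesion proteins, 11 rose from E12.5 to E16.5, Tek of the 35 genes among them, and 0 fell (median 0.39), led by the C-type lectin-like Cd93 (1.27, SE 0.20) and Clec14a (1.25, SE 0.16) and the adhesion receptor Adgrl4 (1.17, SE 0.14). Of 16 genes of capillary exchange and lipid uptake, 10 rose and 2 fell (median 0.66), with the fatty acid transporter Cd36 at 3.66 (SE 0.34), the caveolar protein Cav1 at 2.64 (SE 0.24) and the fatty acid binding protein Fabp4 at 2.62 (SE 0.24); muscle fibres, fat cells and macrophages make some of these too. Of 15 tip cell and sprout genes, 7 rose and 0 fell, including the basement membrane collagens Col4a1 (0.90, SE 0.12) and Col4a2 (0.77, SE 0.11) and the adhesion protein Mcam (0.88, SE 0.09).

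The 14 VEGF and angiopoietin ligands and partners gave 4 higher and 2 lower, with a median of -0.05. The phosphatase Ptprb, which restrains Tek, rose by 1.19 (SE 0.19), Vegfd, a ligand of Flt4, by 1.09 (SE 0.28) and the hypoxia factor Epas1 by 0.77 (SE 0.19). Artery, vein and Notch genes were balanced, 5 higher and 5 lower of 19 (median 0.01), and the largest changes were falls of genes that fold mesenchyme also makes, namely Cxcl12 (-0.80, SE 0.15), Nr2f2 (-0.77, SE 0.13) and Efnb2 (-0.68, SE 0.16). Other endothelial transcription factors had 3 higher and 5 lower of 19, led by Foxc2 (-1.68, SE 0.30), Mef2c (1.21, SE 0.17), which muscle also makes, and Foxc1 (-0.90, SE 0.20).

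Of 10 further lymphatic genes 2 rose and 2 fell, with a median of -0.15. Reln rose by 0.52 (SE 0.14), while Foxc2 and Itga9 (-1.29, SE 0.15), both needed for lymphatic valves and both made by other cells as well, fell. Against E11.5, where Lyve1, Prox1 and Pdpn all rose, 1 of these 10 rose and 5 fell. Blood flow and nitric oxide genes gave 2 higher and 3 lower of 15, with Cyp1b1 at -2.10 (SE 0.15), Ddah1 at 1.40 (SE 0.21) and Calcrl, the receptor that Ramp2 joins, at 1.21 (SE 0.25). Pericyte and vascular smooth muscle genes had 8 higher and 2 lower of 15 (median 0.33), with Abcc9 at 2.48 (SE 0.13), Rgs5 at 1.54 (SE 0.33) and Vtn at 1.16 (SE 0.34), the last also a liver product.

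Several of the 35 genes are shared with other cell types, whose markers moved in the same arrays, and the part of those cells in the results was not tested. Of 17 macrophage markers, which include Lyve1, 3 rose from E12.5 to E16.5 (Mrc1, Tyrobp and Itgam) and 0 fell, and their mean value was 7.72 to 8.14 at E11.5, 7.69 to 8.04 at E12.5 and 7.91 to 8.29 at E16.5. Of 14 mesothelial markers, which include Pdpn and Podxl, 4 rose and 3 fell, with Wt1 at -1.44 (SE 0.13) and Msln at 0.74 (SE 0.11), and means of 7.85 to 8.81, 8.05 to 8.54 and 7.94 to 8.48. Erythroid markers, which include Aqp1, gave 1 higher, Aqp1 itself, and 3 lower of 12, the 3 being the embryonic globins Hba-x, Hbb-y and Hbb-bh1 (-4.80, -4.21 and -5.67). The 8 platelet markers measured, among them Vwf, had 0 higher and 0 lower.

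Liver transcripts rose at both steps. Of 14 hepatocyte markers 6 were higher at E12.5 than at E11.5 and 13 higher at E16.5 than at E12.5, and their mean was 6.85 to 7.09 at E11.5, 7.73 to 11.78 at E12.5 and 9.42 to 11.499 at E16.5. At E11.5, 5 of the 14 had a mean below the arrays' lower quartile. Of 10 liver sinusoid endothelial markers, which include Lyve1, 2 rose (Mrc1 by 0.83 and Stab1 by 0.28) and 1 fell (Oit3 by 0.33, change -0.33), and the sinusoid receptor Stab2 changed by -0.01. Leaving out E12.5 replicates 2 and 4, the arrays with the most liver transcript in earlier work, kept 17 genes higher and left 1 lower, Podxl. All E16.5 arrays stayed in, with their high hepatocyte means, so this setting does not test the part of liver tissue in the rises. Lung epithelial markers had 2 higher, Sftpc at 4.80 (SE 0.48) among them, and 1 lower of 14, with a median of only 0.03. Cardiac and endocardial markers had 4 higher and 2 lower of 13, skeletal muscle markers 11 higher and 2 lower of 15, and fold mesenchyme markers 4 higher and 10 lower of 17 (median -0.65).

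All 24 arrays had closely similar distributions, with medians of 7.44 to 7.55 and lower quartiles of 6.40 to 6.64. Correlations between arrays of a stage over all genes were 0.957 to 0.983 at E11.5, 0.951 to 0.988 at E12.5 and 0.961 to 0.981 at E16.5. Of the endothelial genes, Prox1 lay below its array's lower quartile in 1 array of E11.5 and Sox17 in 1 array of E12.5, and the other 33 did so in none, Pecam1, Cdh5 and the other pan-endothelial markers included. The lower quartile is not a limit of detection. The hepatocyte list mean was 6.85 to 7.09 at E11.5 and the lung epithelial one 6.98 to 7.20 at E12.5. At E12.5 Flt4, Esam, Sox7, Sox17 and Nos3 had means of 6.91 to 7.09, about as low. How much of such low values is signal was not tested.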

How the data were processed

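RNA from 24 laser-captured samples was measured on 1 array each. The authors deposited 1 log2 intensity per probe set and array. Expression Console 1.1, RMA and R 2.9.2 are named in the submitters' processing notes without their roles. The log2 scale was read from the values' range (2.56 to 14.1). Arrays have no read depth, so their number limits the precision. Of 24200 probe sets, 20760 had 1 gene symbol; the 1140 with several and 2300 with none were left out. Where a gene had more than 1 probe set (804 genes), the brightest on average stood for it. Tests were two-sided and used limma 3.58.1 (R 4.3.3), fitting a mean for each stage to all arrays and moderating variances by eBayes, with Benjamini-Hochberg adjustment over all 19351 genes and a threshold of 0.05. The fit was tested on simulated data. On the relative scale, the 5 reference genes were not tested. Dim genes were kept.

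The 35 genes and the 20 lists (294 entries in all, 11 of them not matched) were chosen with earlier results of these data known. All 35 genes are named. Of the lists of vessel wall genes, the up to 3 genes past the threshold with the largest change from E12.5 to E16.5 are named. In several lists of other cell types fewer or none of these are named, and Stab2 is named though it did not pass. The labels number the replicates 1 to 8 in each stage. Same-numbered arrays had deviations correlated between -0.28 and 0.09 across stages, with 0 pairs over 0.1. No pairing by number was thus seen, though a weak shared component could be missed by such correlations. Alternatives were other scalings, a filter on dim genes, the mean over probe sets, other variance models, fewer stages, a replicate block, each array left out, each set of 4 E16.5 arrays, E12.5 without replicates 2 and 4, and a reference without each of its 5 genes.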

Additional observations from a re-analysis of the deposited data

Results flagged for a closer look

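Of 105 sets of 8 arrays (35 genes at 3 stages), 2 held an array far from its fellows by Dixon's criterion, where chance gives about 1 in 20. Vwf read 7.31 in E11.5 replicate 4, with the nearest other array at 7.65. Gpihbp1 read 9.05 in E11.5 replicate 1, with the nearest at 8.28.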

How the results depend on the processing

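The choice of E16.5 arrays moved the results most. With only replicates 5 to 8 of E16.5, 9 genes changed from E12.5 (6 higher, 3 lower) in place of 19, and the change of Eng from E11.5 was -0.0063 (adjusted p = 0.979) in place of 0.50. With only replicates 1 to 4, Prox1 relative to the 5 reference genes changed from E11.5 by -0.44 and passed the threshold. All arrays gave a value near 0 that did not pass. The subtracted reference was higher in replicates 1 to 4, and with all arrays 84.3% of all genes were already lower. Nothing is therefore read from this relative value. The level of Prox1 itself rose from E11.5 by 0.64 with replicates 1 to 4 and by 0.76 with all arrays. The cause of these differences was not tested. Leaving out each array in turn gave 14 to 20 genes changed from E12.5 and 15 to 19 from E11.5, and 20 to 23 and 21 to 22 on the relative scale. From E11.5 to E12.5, 0 genes passed in limma in every setting run. Averaging over probe sets was among the settings but could not change the values of the endothelial genes, since none had several. Over all settings 6 of the 17 genes that rose from E12.5 stayed called (Pecam1, Cdh5, Erg, Gpihbp1, Cd34 and Aqp1), as did 10 of the 16 that rose from E11.5 (these 6, Lyve1, Prox1, Pdpn and S1pr1) and, of those that fell, 0 of 2 and 1 of 3 (Podxl). With a replicate block, 17 genes changed from E12.5 and 16 from E11.5 (Eng and Icam2 lost in both, Cldn5 in the second). On the relative scale 22 and 21 did. No pairing of samples by these numbers was seen. The Ets1 fall from E12.5 was lost with repeated quantile normalization and with centring on the 75th percentile, which moved the median change of all genes from E11.5 to E12.5 to -0.10 and gave 2547 genes higher and 2457 lower from E12.5 to E16.5, against 2223 and 3018. Array signal limits what can be seen of genes near the lower quartile.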
